A study of Arabidopsis thaliana with 9 samples.

Results

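The 10 genes described here belong to the response of Arabidopsis thaliana to low oxygen, and were taken from the count table by locus code. They had been selected on their own counts in these libraries, with their differences from mock already known, so their values, and the calls that the fit across all genes gave them, describe these libraries and are no independent evidence. They are ADH1, PDC1, SUS1, SUS4, HB1, LBD41, PCO1, PCO2 and the transcription factors HRE1 and ERF71, which is also called HRE2, 10 of 32833 loci in the table. Their levels were followed in 9 RNA-seq libraries of whole wild-type seedlings of ecotype Col-0, with 3 libraries in each of 3 groups. One group received flg22 at 100 nM, a peptide of bacterial flagellin that the receptor kinase FLS2 recognises. Another received 2'-aminoacetophenone (2-AA) at 200 uM, a volatile compound of the bacterium Pseudomonas aeruginosa that takes part in its quorum sensing. The mock group is labelled as untreated. All seedlings spent 5 days on solid half-strength Murashige and Skoog medium, then 5 days in the same medium as a liquid. How long treatment lasted, when seedlings were harvested and whether mock seedlings received a carrier are points the sources used here leave unstated. The low oxygen of the label names the known role of these genes and no treatment in the study.

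Plants respond to oxygen shortage through group VII ethylene response factors (ERF-VII), whose proteins begin with methionine and cysteine. While oxygen is present, methionine aminopeptidases expose the cysteine, plant cysteine oxidases (PCO) oxidise it, and an arginyl transferase and the ubiquitin ligase PRT6 send the protein to degradation by the N-degron pathway. When oxygen runs low the factors persist and activate a core set of genes for sucrose breakdown, ethanol fermentation, haemoglobin and feedback control. The level of an ERF-VII mRNA is therefore not a measure of the factor's protein.

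The coding starts of the factors are shown because they carry the feature that oxygen sensing acts on. Each line gives the first 30 bases of the coding sequence, 5′ to 3′ on the coding strand, from the RefSeq annotation of TAIR10.1. The capitals mark the second codon, which is a cysteine codon in all 5 group VII genes.
ERF71, chr2:19503461-19503490, minus strand: atgTGTgggggagctatcatttctgatttc
HRE1, chr1:27241904-27241933, plus strand: atgTGCggaggagctgtaatttccgattac
RAP2.12, chr1:20135242-20135271, plus strand: atgTGTggaggagctataatatccgatttc
RAP2.2, chr3:4738971-4739000, minus strand: atgTGTggaggagctataatctccgatttc
RAP2.3, chr3:5705784-5705813, plus strand: atgTGTggcggtgctattatttccgattat
In HRE1, 2 of 3 annotated models begin there. ERF71 and HRE1 are the members, and RAP2.12, RAP2.2 and RAP2.3 are the factors known to be made in ordinary air.

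The stretches before the transcription starts of ADH1 and PDC1 are shown because these genes encode the enzymes of ethanol fermentation and hold short motifs known from anaerobic promoters. Each is written 5′ to 3′ on the gene's strand from the TAIR10.1 assembly. The capitals mark AAACCA, the GT motif first described in anaerobic promoters, and CACGTG, the G-box. Both stretches end at the last base before the start.
ADH1, chr1:28975005-28975254, plus strand: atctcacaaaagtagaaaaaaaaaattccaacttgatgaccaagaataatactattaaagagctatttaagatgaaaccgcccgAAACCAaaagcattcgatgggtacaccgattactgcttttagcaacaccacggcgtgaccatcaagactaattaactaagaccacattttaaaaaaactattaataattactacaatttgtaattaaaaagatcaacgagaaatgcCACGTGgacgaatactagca
PDC1, chr4:15954804-15954923, minus strand: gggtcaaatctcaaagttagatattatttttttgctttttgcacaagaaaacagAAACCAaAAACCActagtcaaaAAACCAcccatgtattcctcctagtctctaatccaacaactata
In the 500 bases before the start, both strands searched, AAACCA was found in 6 of the 10 members and in 47.3% of 27443 protein-coding genes. LBD41 had 4 matches, PDC1 3, ADH1 2, and SUS1, PCO2 and HRE1 1 each. CACGTG was found in 2 members, ADH1 and LBD41, and in 9.35% of the protein-coding genes. AATATCT, the core of the evening element bound by clock factors, was found in PDC1, SUS1, SUS4 and PCO2 and in 18.4% of those genes. The 3 motifs share no bases with each other in the stretches shown, and a match describes the letters only.

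Library totals ran from 26644996 to 33195007 counts, and levels are given as CPM, for which edgeR's TMM factors put the counts of all libraries on 1 scale. Libraries are named by group and replicate number, as in flg22 2. A gene without counts in a library could still lie at 0.0913 to 0.114 CPM, taking 3 counts as the floor. All 10 members were among the 21059 genes that passed the filter on low counts. The chloroplast share of counts was 0.0743% in flg22 2, 0.241% in 2-AA 2 and 0.0980% in mock 3, and 0.0211 to 0.0281% in the other 6 libraries. Markers of root and leaf were present in all 9 libraries. No source says whether the 3 libraries of a group came from separate cultures, so the spread given here is that between libraries.

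The summed level of the 10 genes was 98.7 to 186 CPM in flg22 libraries, 183 to 257 CPM in 2-AA libraries and 786 to 1204 CPM in mock libraries. The treated libraries all lay below the mock libraries. With flg22, 9 members were called lower than in mock and 1, HRE1, was called higher (edgeR's quasi-likelihood test, adjusted p under 0.05), where 29.4% of all genes tested were called lower and 29.8% higher. A fall of at least 4-fold was called for 7 members, against 2.00% of all genes. The flg22 libraries lay below mock with no overlap for 9 members and above it for 1, against 32.8% and 32.7% of all genes. The members' median log2 fold change was -2.72, and that of all genes -0.00. With 2-AA, 7 members were called lower, HRE1 was called higher, and PDC1 and SUS1 were not called, where 31.1% of all genes were called lower and 31.2% higher. A fall of at least 4-fold was called for 6 members, against 2.80% of all genes, and the median log2 fold change of the members was -2.20. The 2-AA libraries lay below mock with no overlap for 7 members and above it for 1, against 34.1% and 33.7% of all genes. These counts describe genes that were picked with these results known, and both comparisons use the same 3 mock libraries.

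**Figure D1:**
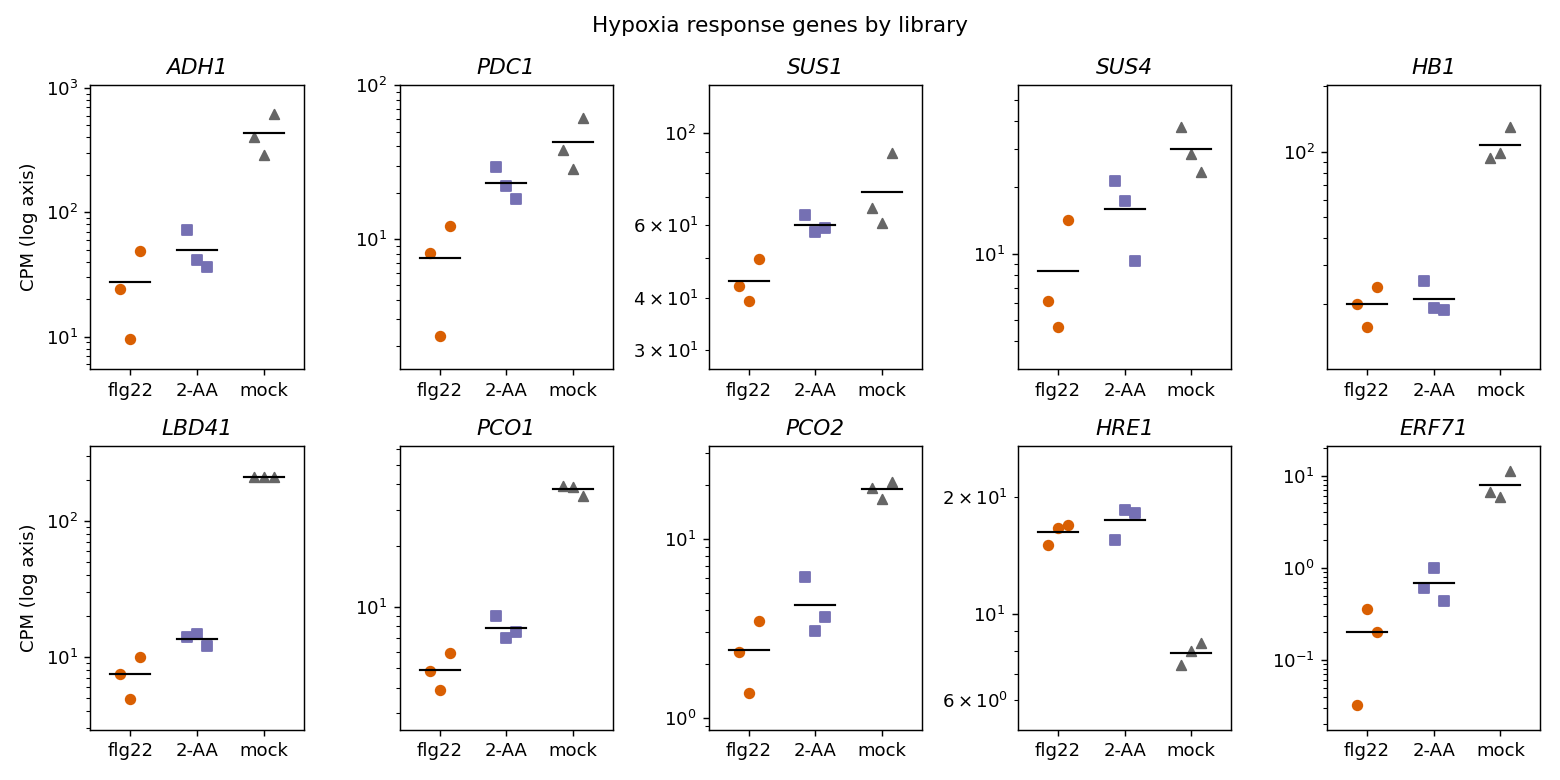
CPM of each of the 10 genes on log axes in flg22, 2-AA and mock libraries, where each point is a library. The treated points lie below the mock points in 7 panels with no overlap, above them for HRE1, and the 2-AA and mock points overlap for PDC1 and SUS1.

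Other markers differed between the same groups. The summed level of 11 root genes was 1301 to 1687 CPM in flg22 libraries, 1675 to 1847 CPM in 2-AA libraries and 1846 to 2160 CPM in mock libraries, with no gene at 0. Of these, 6 were called lower and 0 higher with flg22, and 2 lower and 0 higher with 2-AA, by edgeR, beside the 29.4% of all genes called lower with flg22 and 31.1% with 2-AA. The summed level of 8 leaf genes was 25260 to 27700 CPM with flg22, 21360 to 24060 CPM with 2-AA and 35020 to 36780 CPM in mock, with none at 0. Of these, 5 were called lower and 1 higher with flg22, and 6 lower and 1 higher with 2-AA, by edgeR, so the leaf genes did not move together. Of all genes, 29.4% were called lower and 29.8% higher with flg22, and 31.1% lower and 31.2% higher with 2-AA. The antenna gene CAB2 averaged 529 CPM with flg22, 301 CPM with 2-AA and 4161 CPM in mock, while the carbonic anhydrase gene CA1 averaged 3646 CPM with flg22, 2580 CPM with 2-AA and 1658 CPM in mock. In bulk samples, fewer cells of a type and less RNA per cell cannot be told apart. Of 11 clock genes, 6 were called higher and 4 lower with each treatment by edgeR. The shares of all genes were 29.8% higher and 29.4% lower with flg22, and 31.2% higher and 31.1% lower with 2-AA. The morning gene LHY averaged 6.02 CPM with flg22, 2.91 CPM with 2-AA and 221 CPM in mock, and the evening gene TOC1 averaged 232 CPM with flg22, 237 CPM with 2-AA and 29.9 CPM in mock. The log2 fold change of LHY with 2-AA was -6.21, or -7.07 without 2-AA 3. The part of root and leaf share, of the clock and of the hour of harvest in the members' levels was not tested.

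ADH1 encodes alcohol dehydrogenase, the last enzyme of ethanol fermentation (AT1G77120, chr1:28975255-28977417, plus strand). Its level was 24.2, 9.48 and 49.0 CPM in flg22 1, 2 and 3, then 72.4, 41.3 and 36.1 CPM in 2-AA 1, 2 and 3, and 407, 289 and 614 CPM in mock 1, 2 and 3. All 6 treated libraries lay below all mock libraries, and the flg22 and 2-AA ranges overlapped. On the log2 scale the fold change was -3.98 (SE 0.48) for flg22 and -3.13 (SE 0.46) for 2-AA against mock, a level 15.8-fold lower with flg22 and 8.73-fold lower with 2-AA. For flg22 it was -4.69 without flg22 3 and -3.24 without the 3 libraries rich in chloroplast counts. An overlapping gene on the other strand, AT1G77122, shares 0.776% of the 50-base words of ADH1's exons and averaged 19.4 CPM with flg22, 15.8 CPM with 2-AA and 9.69 CPM in mock, so it moved the other way.

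PDC1 encodes a pyruvate decarboxylase, which makes the acetaldehyde that ADH1 reduces (AT4G33070, chr4:15952257-15954803, minus strand). Its level was 8.17, 2.35 and 12.2 CPM with flg22, 29.3, 22.1 and 18.1 CPM with 2-AA, and 38.1, 28.7 and 61.05 CPM in mock. All flg22 libraries lay below all others, while the highest 2-AA library exceeded the lowest mock library. PDC1 had a log2 fold change of -2.49 (SE 0.41) with flg22 and -0.88 (SE 0.38) with 2-AA. The flg22 value was -1.70 without the 3 libraries rich in chloroplast counts. The 2-AA value, not called in the fit of all libraries, was called without mock 2 (-1.09), without flg22 2 (-0.87) and without flg22 3 (-0.88).

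SUS1 and SUS4 encode sucrose synthases, which split sucrose at a lower energy cost than invertase does and feed glycolysis when oxygen is short. Their coding sequences are identical at 84.3% of aligned bases, yet their exons share no 50-base word. SUS4 (AT3G43190, chr3:15179010-15184105, minus strand) was at 6.13, 4.67 and 14.2 CPM with flg22, 21.4, 17.3 and 9.31 CPM with 2-AA, and 37.6, 28.2 and 23.5 CPM in mock. Both treatments lay below mock with no overlap, and they overlapped each other. SUS4 had a log2 fold change of -1.83 (SE 0.36) for flg22, or -2.46 without flg22 3, and -0.90 (SE 0.35) for 2-AA. The 2-AA call was lost without mock 1 (-0.68), mock 2 (-0.92), 2-AA 2 (-0.95) or 2-AA 3 (-0.62), and under DESeq2 (-0.89). SUS1 (AT5G20830, chr5:7050217-7055398, minus strand) was at 42.8, 39.4 and 49.6 CPM with flg22, 63.3, 57.8 and 58.8 CPM with 2-AA, and 65.8, 60.5 and 89.2 CPM in mock. Its flg22 libraries were the lowest, and its 2-AA libraries overlapped the mock range. For SUS1 the log2 fold change was -0.71 (SE 0.13) for flg22 and -0.26 (SE 0.12) for 2-AA, where the 2-AA value was called only without mock 2 (-0.36) among the fits that left out 1 library, and with the replicate number as a block (-0.24). SUS1 had the smallest fold change of the 10 genes in both comparisons.

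HB1 encodes the hypoxia-inducible class 1 haemoglobin, which scavenges nitric oxide (AT2G16060, chr2:6982531-6983777, minus strand). Its level was 19.97, 15.6 and 24.0 CPM with flg22, 25.4, 19.1 and 18.7 CPM with 2-AA, and 93.5, 99.2 and 131 CPM in mock. The treated libraries were all far below mock and intermixed with each other. HB1 had a log2 fold change of -2.44 (SE 0.17) for flg22 and -2.35 (SE 0.17) for 2-AA. Per kilobase of exon, the class 2 gene HB2 stood at 68.1 ± 3.47 CPM with flg22, 47.1 ± 2.52 CPM with 2-AA and 56.3 ± 5.49 CPM in mock (SD, n = 3 each), so HB1 was above HB2 in mock and below it in both treated groups.

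LBD41 encodes a LOB-domain protein of the core hypoxia set (AT3G02550, chr3:536500-538126, minus strand). Its level was 7.51, 4.92 and 10.05 CPM with flg22, 13.9, 14.9 and 11.9 CPM with 2-AA, and 213, 211 and 211 CPM in mock. The 3 groups did not overlap, and the mock libraries lay within a few CPM of each other. The log2 fold change was -4.81 (SE 0.18) for flg22 and -3.96 (SE 0.17) for 2-AA, a level 28.1-fold lower with flg22 and 15.6-fold lower with 2-AA. Among all 21059 genes, ordered from the most lowered, LBD41 stood at place 27 with flg22 and at place 67 with 2-AA, and ADH1 at place 66 with flg22 and 165 with 2-AA.

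PCO1 and PCO2 encode cysteine oxidases that oxidise the group VII factors and are themselves raised by low oxygen, which makes them feedback genes. PCO1 (AT5G15120, chr5:4898641-4900734, plus strand) was at 4.85, 3.91 and 5.92 CPM with flg22, 8.998, 7.01 and 7.56 CPM with 2-AA, and 39.5, 38.8 and 35.2 CPM in mock. Its 3 groups did not overlap. The log2 fold change was -2.95 (SE 0.14) for flg22 and -2.27 (SE 0.14) for 2-AA. PCO2 (AT5G39890, chr5:15974270-15976270, plus strand) was at 2.33, 1.37 and 3.48 CPM with flg22, 6.13, 3.05 and 3.64 CPM with 2-AA, and 19.3, 16.7 and 20.6 CPM in mock. Both treated groups lay below mock, and they overlapped each other. The log2 fold change was -2.97 (SE 0.29) for flg22 and -2.14 (SE 0.27) for 2-AA.

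ERF71 and HRE1, group VII factors whose own mRNAs are raised by low oxygen, differed in direction. ERF71 (AT2G47520, chr2:19502776-19503702, minus strand) had 1, 10 and 6 counts in flg22 1, 2 and 3, 19, 26 and 14 counts in 2-AA 1, 2 and 3, and 199, 192 and 344 counts in mock 1, 2 and 3. On the CPM scale these were 0.0328, 0.362 and 0.203 with flg22, 0.606, 0.991 and 0.432 with 2-AA, and 6.66, 5.84 and 11.3 in mock. The 3 groups did not overlap, and flg22 1 lay below the floor of 3 counts. Its log2 fold change was -5.32 (SE 0.49) for flg22, a level 39.9-fold lower, and -3.57 (SE 0.41) for 2-AA, a level 11.9-fold lower. The flg22 value was -6.03 without flg22 2. ERF71 stood at place 16 from the most lowered gene with flg22 and at place 104 with 2-AA.

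HRE1 (AT1G72360, chr1:27241696-27242968, plus strand) was at 15.02, 16.6 and 17.0 CPM with flg22, 15.5, 18.5 and 18.2 CPM with 2-AA, and 7.36, 8.03 and 8.42 CPM in mock. Every treated library lay above every mock library. Its log2 fold change was 1.03 (SE 0.11) for flg22 and 1.13 (SE 0.11) for 2-AA, a level 2.04-fold higher with flg22 and 2.19-fold higher with 2-AA. It is the only member of the 10 that was higher than mock in either comparison. HRE1 overlaps AT1G72370 on the other strand, a ribosomal protein gene named P40 that shares 5.70% of the 50-base words of HRE1's exons, and whether the counting used strand is not given. P40 averaged 327 ± 27.5 CPM with flg22, 271 ± 21.4 CPM with 2-AA and 700.1 ± 30.4 CPM in mock (SD, n = 3 each), so it was lower where HRE1 was higher.

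**Figure D2:**
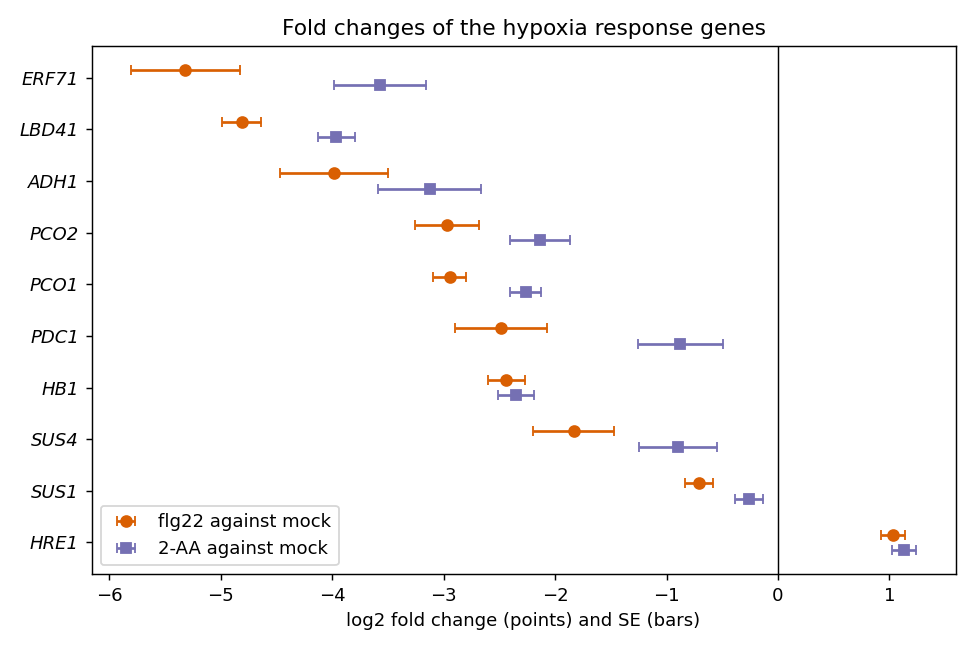
Log2 fold change (points) with SE (bars) of each of the 10 genes, for flg22 against mock and 2-AA against mock. The points run from -5.32 for ERF71 with flg22 to 1.13 for HRE1 with 2-AA, and the flg22 point lies left of the 2-AA point for all 10.

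Several close relatives of the members had other patterns. Levels here are CPM per kilobase of exon, as means of 3 libraries ± SD. The constitutive factor RAP2.12 was at 100.4 ± 6.20 with flg22, 94.2 ± 8.11 with 2-AA and 66.0 ± 2.38 in mock. RAP2.3 was at 458 ± 79.6 with flg22, 355 ± 61.8 with 2-AA and 265 ± 53.1 in mock, and RAP2.2 at 115 ± 7.10 with flg22, 114 ± 14.0 with 2-AA and 112 ± 4.92 in mock. HRE1 was at 12.7 ± 0.824 with flg22, 13.7 ± 1.29 with 2-AA and 6.24 ± 0.419 in mock, and ERF71 at 0.236 ± 0.195 with flg22, 0.802 ± 0.339 with 2-AA and 9.42 ± 3.50 in mock. The 3 constitutive factors thus stood far above both members in every group. Among cysteine oxidases, PCO1 was the highest of the 5 in mock at 26.3 ± 1.58, against 3.40 ± 0.701 with flg22 and 5.46 ± 0.714 with 2-AA. PCO5, whose mRNA is not known to depend on low oxygen, was at 17.6 ± 2.08 with flg22, 18.8 ± 1.17 with 2-AA and 12.6 ± 0.705 in mock, so it was the highest oxidase in the treated groups.

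PDC2, the other main pyruvate decarboxylase gene, was higher with both treatments. It was at 83.4, 86.6 and 86.6 CPM in the flg22 libraries, 117, 127 and 106 CPM in the 2-AA libraries, and 14.5, 17.7 and 21.6 CPM in the mock libraries. Its log2 fold change was 2.25 (SE 0.12, edgeR adjusted p = 5.06e-09) for flg22 and 2.70 (SE 0.12, edgeR adjusted p = 8.49e-10) for 2-AA. Per kilobase, PDC2 was at 37.5 ± 0.817 CPM with flg22, 51.3 ± 4.68 CPM with 2-AA and 7.87 ± 1.56 CPM in mock, and PDC1 at 3.42 ± 2.23 CPM with flg22, 10.5 ± 2.56 CPM with 2-AA and 19.2 ± 7.52 CPM in mock (SD, n = 3 each). The gene with the more abundant mRNA of this pair was therefore PDC2 in both treated groups and PDC1 in mock. A further relative, PDC3, was lower with both treatments. It was at 0.556 ± 0.387 CPM per kilobase with flg22, 0.5035 ± 0.132 with 2-AA and 2.06 ± 0.311 in mock. Its log2 fold change was -1.88 (SE 0.40) for flg22 and -2.02 (SE 0.41) for 2-AA, and both were called. Among sucrose synthases, SUS3 was at 2.45 ± 0.387 CPM per kilobase with flg22, 6.02 ± 1.16 with 2-AA and 1.64 ± 0.403 in mock, with SUS1 the highest in every group.

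**Figure D3:**
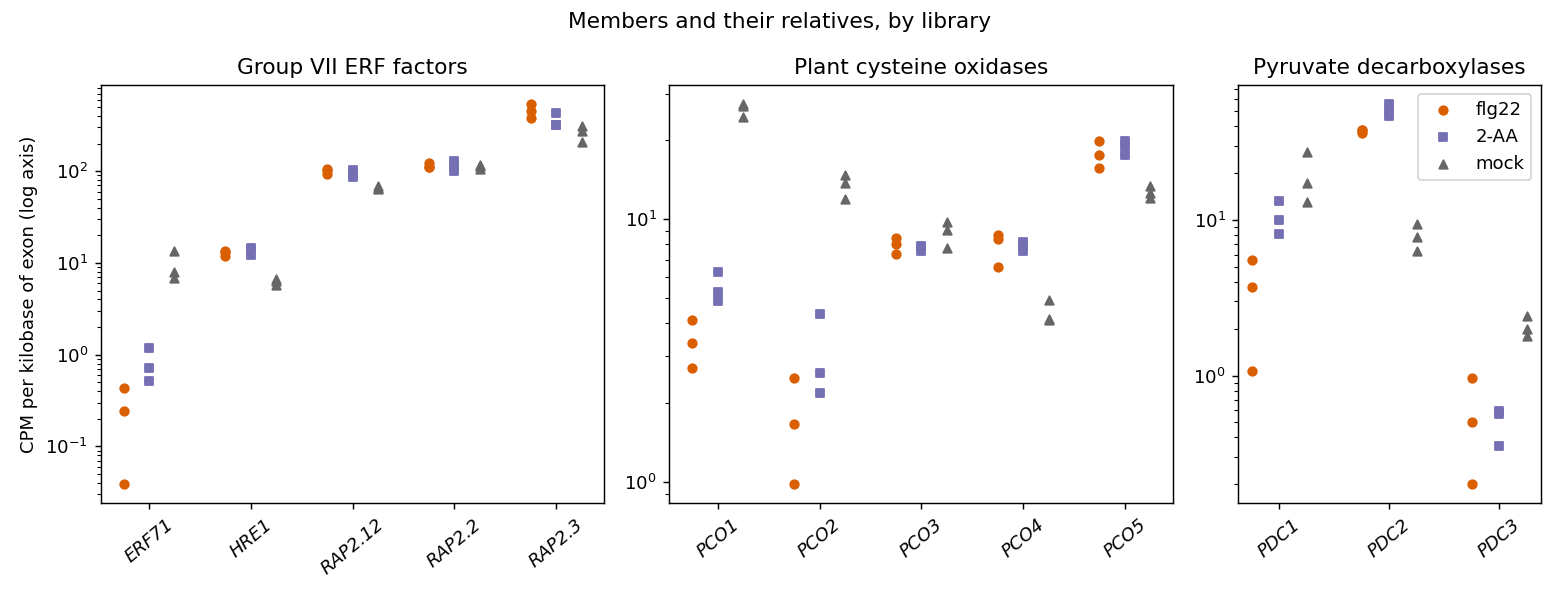
CPM per kilobase of exon on a log axis for group VII factors, plant cysteine oxidases and pyruvate decarboxylases, with 1 point per library. ERF71, PCO1, PCO2, PDC1 and PDC3 are lower with treatment, with 2-AA and mock overlapping for PDC1. PDC2, HRE1, RAP2.12, RAP2.3, PCO4 and PCO5 are higher with both treatments, and RAP2.2 and PCO3 overlap mock.

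The order of the 10 genes by level per kilobase differed between groups. With flg22 the highest were HB1 (20.1 ± 4.25 CPM per kilobase), ADH1 (17.3 ± 12.5) and HRE1 (12.7 ± 0.824), and these 3 were within the spread of ADH1. With 2-AA the order began with ADH1 (31.3 ± 12.3), HB1 (21.3 ± 3.78), SUS1 (16.1 ± 0.788) and HRE1 (13.7 ± 1.29), where the spreads of ADH1 and HB1 overlapped. In mock it began with ADH1 (274 ± 103), LBD41 (140 ± 0.819) and HB1 (109 ± 20.2), whose libraries did not overlap. The next in mock, PCO1 at 26.3 ± 1.58, stood clear of HB1, while SUS1 (19.3 ± 4.10) and PDC1 (19.2 ± 7.52) did not differ beyond their spread. PCO2 (13.4 ± 1.41), SUS4 (10.09 ± 2.43) and ERF71 (9.42 ± 3.50) followed within overlapping spreads, and HRE1 was last at 6.24 ± 0.420. HRE1 moved to place 3 with flg22 and 4 with 2-AA, and ERF71 was last in both treated groups.

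Between the treatments, all 10 members had a positive log2 fold change of 2-AA against flg22, from 0.09 for HB1 to 1.75 for ERF71. Of these, 4 were called higher and 0 lower by edgeR, where 7.86% of all genes were called higher and 7.89% lower, and the median was 0.84. The 2-AA libraries lay above the flg22 libraries with no overlap for 5 members, against 16.4% of all genes. The 4 called were PDC1 at 1.61 (SE 0.41), LBD41 at 0.85 (SE 0.18), PCO1 at 0.68 (SE 0.15) and SUS1 at 0.45 (SE 0.13). ERF71, at 1.75 (SE 0.58), did not overlap and was not called. ADH1 at 0.86 (SE 0.44), SUS4 at 0.94 (SE 0.37), PCO2 at 0.83 (SE 0.30), HB1 at 0.09 (SE 0.17) and HRE1 at 0.10 (SE 0.10) overlapped and were not called.

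Single libraries changed several of these values. Without flg22 3, ADH1 stood at 1.56, SUS4 at 1.56 and PCO2 at 1.202, and all 3 were called. Without flg22 2, ERF71 stood at 2.47 and was called, as it was without 2-AA 3 (1.995) and without mock 3 (1.75). SUS4 was also called without 2-AA 3 (1.22). The PDC1 call was lost without 2-AA 1 (1.402), and the SUS1 call without flg22 1 (0.43), flg22 2 (0.38), 2-AA 1 (0.41), 2-AA 2 (0.47) or 2-AA 3 (0.46). HB1 turned to -0.06 without flg22 2 and to -0.07 without 2-AA 1. LBD41 and PCO1 kept their calls in each of the fits that left out 1 library.

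Replicate libraries of 1 group differed most for the fermentation genes and ERF71. The SD of log2 CPM within groups, pooled over the 3 groups, was 0.81 for ADH1, 0.80 for PDC1, 0.76 for ERF71, 0.63 for SUS4 and 0.49 for PCO2, and 0.11 to 0.31 for the other 5. The median over all genes was 0.15. The share of genes with a smaller SD was 97.2% for ADH1 and 35.8% for HRE1, the steadiest member. Deviations from the group mean ran together across many members, though not all. In flg22 2, ERF71 was 0.93 above its group mean on the log2 scale, while ADH1 stood at -1.24. In mock, SUS4 was highest in mock 1 (0.36) and lowest in mock 3 (-0.31). The flg22 2 library was the lowest of its group for 8 of the 10 genes and flg22 3 the highest for 9. The 2-AA 1 library was the highest of its group for 7, and mock 3 was the highest for 7. In mock the spread was largest for PDC1 and ADH1, at 0.55 and 0.54, and smallest for LBD41, at 0.01. The chloroplast share was raised in flg22 2, 2-AA 2 and mock 3. Of the 10 genes, 2-AA 2 was the highest of its group for 3 and the lowest for 3, and mock 3 was the lowest for 3. The part of the chloroplast share in the spread was not tested.

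**Figure D4:**
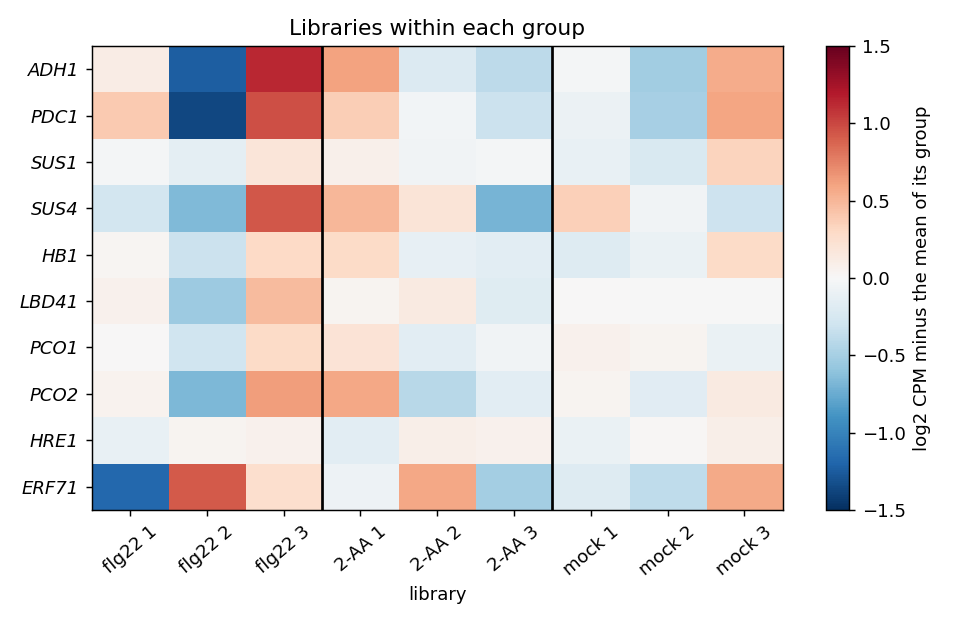
Log2 CPM minus the mean of its group for each of the 10 genes (vertical) in each library (horizontal). Within its group, the flg22 2 column is the lowest for 8 genes and flg22 3 the highest for 9, while the row of HRE1 is nearly even.

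Genes of the oxygen-sensing pathway other than the members had log2 fold changes between -0.78 and 0.85 against mock, apart from HRA1. Of these 18 genes, 7 were called higher with flg22, 3 lower and 8 not called, with a median log2 fold change of 0.19, where 29.8% of all genes were called higher and 29.4% lower. With 2-AA, 10 were called higher, 3 lower and 5 not called, with a median of 0.27, where 31.2% of all genes were called higher and 31.1% lower. Between the treatments edgeR called 0 of 18, where 7.86% of all genes were called higher and 7.89% lower. DESeq2 and limma-voom also called 0, and 1 had an unadjusted p under 0.05 in edgeR. With so few genes and such shares, 0 calls do not show that the pathway was equal between the treatments. RAP2.12 was higher by 0.60 (SE 0.07, edgeR adjusted p = 1.23e-05) with flg22 and 0.51 (SE 0.07, edgeR adjusted p = 4.83e-05) with 2-AA. RAP2.3 was higher by 0.79 (edgeR adjusted p = 0.000798) with flg22, and by 0.42 (edgeR adjusted p = 0.033) with 2-AA, where the call was lost without mock 1 (0.28), mock 2 (0.46) or 2-AA 2 (0.27). RAP2.2 stood at 0.03 with flg22 and 0.02 with 2-AA and was not called.

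The oxidases PCO4 and PCO5, made regardless of oxygen, were higher: PCO4 by 0.84 with flg22 and 0.85 with 2-AA, and PCO5 by 0.48 with flg22 and 0.58 with 2-AA (edgeR adjusted p between 5.27e-05 and 0.000882). PCO3 was at -0.16 with flg22 and -0.19 with 2-AA and was not called, except for 2-AA without mock 1 (-0.27). Of the enzymes that follow oxidation, the arginyl transferase gene ATE1 was higher by 0.43 with flg22 and 0.59 with 2-AA, and its relative ATE2 stood at 0.29, not called, with flg22 and at 0.32 with 2-AA, where the call was lost without mock 3 (0.23), 2-AA 1 (0.32) or 2-AA 2 (0.25). ATE2 with flg22 was called without mock 2 (0.36) or flg22 1 (0.35). The ligase gene PRT6 was at 0.16, not called, with flg22 and higher by 0.22 with 2-AA. With flg22 the PRT6 value was called without 2-AA 2 or 2-AA 3, at 0.16 in both. BIG, which acts beside PRT6, was higher by 0.20 with flg22 and 0.25 with 2-AA.

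The aminopeptidase genes that expose the cysteine split. MAP2A was higher by 0.43 with flg22 and 0.54 with 2-AA, while MAP1A fell by 0.78 with flg22 and 0.76 with 2-AA on the log2 scale and MAP2B fell by 0.47 with flg22 and 0.36 with 2-AA (edgeR adjusted p between 2.13e-07 and 1.00e-04). ACBP1 and ACBP2, acyl-CoA-binding proteins that hold RAP2.12 at the membrane, stood at 0.20 and 0.17 with flg22, not called, apart from ACBP1 without 2-AA 2 (0.20), and at 0.05, not called, and 0.29, called, with 2-AA. VRN2 and ZPR2, other substrates of the pathway, were at -0.10 and 0.11 with flg22 and -0.05 and 0.36 with 2-AA, and none was called. HRA1 was the exception in size. This trihelix factor, a hypoxia-induced antagonist of RAP2.12, was at 4.95, 4.56 and 7.61 CPM with flg22, 7.94, 6.74 and 5.37 CPM with 2-AA, and 82.9, 75.2 and 74.2 CPM in mock. Its log2 fold change was -3.76 (SE 0.17, edgeR adjusted p = 1.9e-09) for flg22 and -3.53 (SE 0.17, edgeR adjusted p = 1.8e-09) for 2-AA.

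Of 21 other genes of glycolysis, fermentation and anaerobic amino acid metabolism, 8 were called higher, 8 lower and 5 not with flg22, and 8 higher, 7 lower and 6 not with 2-AA, with median log2 fold changes of -0.01 for flg22 and 0.23 for 2-AA. Of all genes, 29.8% were called higher and 29.4% lower with flg22, and 31.2% higher and 31.1% lower with 2-AA. Glycolytic genes were among those that fell. ENO2, an enolase gene, fell by 1.16 (edgeR adjusted p = 3.01e-08) with flg22 and by 0.96 (edgeR adjusted p = 1.17e-07) with 2-AA on the log2 scale. GAPC2, a cytosolic glyceraldehyde-3-phosphate dehydrogenase gene, fell by 0.93 with flg22 and by 1.07 with 2-AA. GAPC1, its paralog, fell by 1.17 (SE 0.08) with flg22 and by 0.28 with 2-AA, and 2-AA exceeded flg22 by 0.89 (SE 0.08, edgeR adjusted p = 1e-05). GAD1, a glutamate decarboxylase gene of GABA synthesis, was higher by 0.97 with flg22 and 0.81 with 2-AA, and PPDK, pyruvate orthophosphate dikinase, by 0.86 with flg22 and 1.12 with 2-AA. Between the treatments 6 of the 21 were higher with 2-AA and 2 lower, beside 7.86% and 7.89% of all genes. These are 8 in all, or 5 without 2-AA 2.

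A longer list of core hypoxia genes, without the 10 members, held 41 loci, of which 39 were tested, AT4G10270 had 0 counts in every library and AT3G29970 was filtered out. The list shares AlaAT1, PFK6, PDC2 and HRA1 with those above. With flg22, 20 were called lower, 9 higher and 10 not, 10 of the 20 by at least 4-fold, and the median log2 fold change was -0.52. With 2-AA, 22 were called lower, 12 higher and 5 not, 7 of the 22 by at least 4-fold, and the median was -0.58. Of all genes, 29.4% were called lower with flg22 and 2.00% by at least 4-fold, with 29.8% higher, and 31.1% were called lower with 2-AA and 2.80% by at least 4-fold, with 31.2% higher. AT1G33055, an uncharacterised gene, averaged 1.98 CPM with flg22, 2.69 CPM with 2-AA and 26.6 CPM in mock, with log2 fold changes of -3.75 for flg22 (SE 0.14, edgeR adjusted p = 3.15e-10) and -3.31 for 2-AA (SE 0.13, edgeR adjusted p = 4.12e-10).

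At the other end, the peroxidase gene AT5G39580 averaged 246 CPM with flg22, 553 CPM with 2-AA and 6.64 CPM in mock, higher on the log2 scale by 5.21 with flg22 (SE 0.20, edgeR adjusted p = 4.89e-10) and 6.38 with 2-AA (SE 0.21, edgeR adjusted p = 1.14e-10). AT2G15880, of a leucine-rich repeat family, averaged 71.1 CPM with flg22, 52.7 CPM with 2-AA and 7.17 CPM in mock, higher by 3.31 with flg22 and 2.88 with 2-AA. Between the treatments 7 of the 39 were higher with 2-AA and 2 lower, where 7.86% of all genes were higher and 7.89% lower. These are 9 in all, or 14 without flg22 3 and 4 without 2-AA 2. Of 5 genes that mark low sugar or energy, 4 were higher and 1 lower with flg22, and 3 higher, 1 lower and 1 not called with 2-AA. The shares of all genes were 29.8% higher and 29.4% lower with flg22, and 31.2% higher and 31.1% lower with 2-AA. The branched-chain aminotransferase gene BCAT2 was higher by 3.38 (SE 0.25) with flg22 and 3.20 with 2-AA, and the senescence gene SEN1 by 2.37 with flg22 and 2.124 with 2-AA. The asparagine synthetase gene ASN1 was higher by 1.54 with flg22 and stood at 0.18, not called, with 2-AA, and 2-AA against flg22 was -1.36 (edgeR adjusted p = 0.000884). DIN10 was higher by 1.00 with flg22 and 1.09 with 2-AA, and the trehalose phosphate synthase family gene TPS8 fell by 0.44 with flg22 and by 0.60 with 2-AA.

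**Figure D5:**
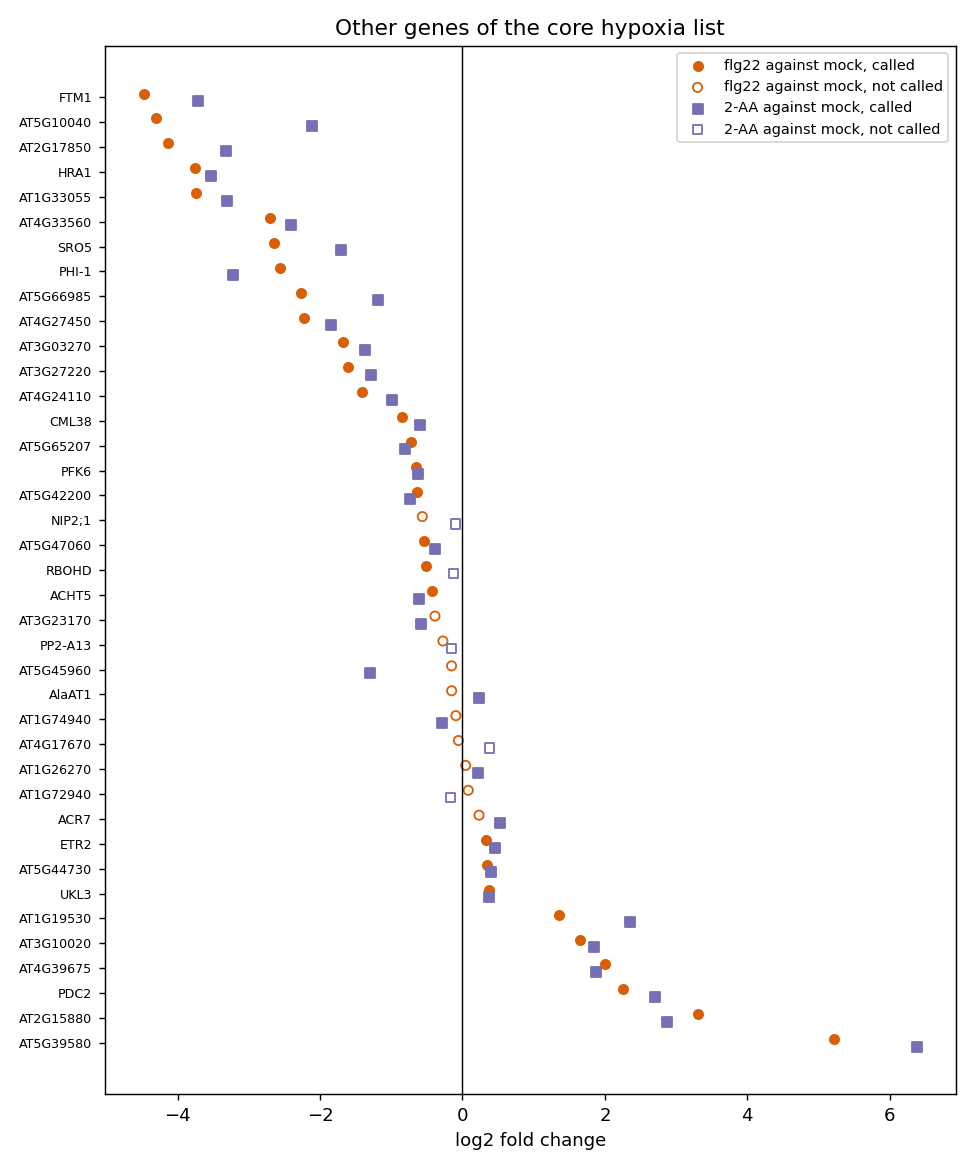
Log2 fold change of the 39 tested genes of the core hypoxia list other than the 10 members, for flg22 against mock and 2-AA against mock. Values run from -4.48 to 6.38, with more genes left of 0 than right of it in both comparisons.

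Genes were ranked by the correlation of their log2 CPM with that of a member over the 9 libraries. The candidates were 15419 genes with a mean of at least 5 CPM. For ADH1 the nearest were FTM1 (Pearson r = 0.992), AT1G59660 (0.991) and AT1G29785 (0.989). FTM1, a stearoyl-ACP desaturase gene of the core list, was at 4.79, 1.77 and 18.1 CPM with flg22, 24.4, 10.3 and 7.40 CPM with 2-AA, and 169, 161 and 222 CPM in mock, so it repeated the low flg22 2 and high mock 3 of ADH1. For ERF71 the nearest were GAUT9 (0.986), AT3G19970 (0.982) and GSTU13 (0.981), and for HRE1 AT3G21790 (0.997), AT4G13360 (0.996) and AT3G19800 (0.994). Pearson r does not measure the size of a change. With flg22 the log2 fold change of GAUT9, AT3G19970 and GSTU13 was -0.33, -1.01 and -0.71, beside -5.32 for ERF71. AT1G59660 and AT1G29785 stood at -0.96 and -0.77, beside -3.98 for ADH1. AT3G21790, AT4G13360 and AT3G19800 stood at 1.06, 0.51 and 0.96, beside 1.03 for HRE1. An r above 0.95 was reached by 150 genes for ADH1, 103 for ERF71 and 1405 for HRE1. These correlations describe 9 libraries in 3 groups, and all genes share the libraries and their depth.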

How the data were processed

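RNA of whole seedlings was sequenced in 9 libraries prepared, per the labels' protocols, with the TruSeq RNA kit of Illumina. The authors deposited raw counts per locus for 32833 loci. Trimmomatic 0.36, HISAT2 and edgeR with TAIR10 appear in the submitters' processing notes; which program counted reads, whether it used strand and which annotation it read was not given in the sources used here. No column was left unused and 0 rows named no gene. Groups follow the labels. In R 4.3.3, edgeR 4.0.16 kept 21059 genes (filterByExpr, minimum count 10, minimum total 15), scaled libraries by TMM and fitted all 9 in 1 quasi-likelihood model of group means. Two-sided p-values were adjusted by Benjamini-Hochberg over all genes tested, with calls made at 0.05. SE is the fold change divided by the root of F. Alternatives were DESeq2 1.42.0, limma-voom (limma 3.58.1), RLE scaling, no filter, each library left out, the 3 libraries rich in chloroplast counts left out, the compared groups alone and a replicate block.

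The members and gene lists were chosen with earlier results of these data known, so no p-value is printed for members and their calls are descriptive. The calls and adjusted p-values of list genes are descriptive too, and are no independent evidence. Many of these genes were named because their p was smallest. Genes were named by rule: all members and oxygen-sensing genes, the 5 called genes with the smallest p per comparison with mock in the metabolism, core and low-energy lists, LHY, TOC1, and the 3 nearest neighbours by correlation. AT1G77122, P40, HB2, PDC3 and SUS3, which overlap or resemble members, and the leaf genes CAB2 and CA1 were added after their values were seen. Entries whose name the TAIR10.1 annotation did not give were dropped. Motifs were searched as exact letters in the RefSeq TAIR10.1 assembly. Within groups, pairs of libraries differed beyond sampling noise (chi-square per degree of freedom 5.62 to 31.8 over genes with at least 20 reads). Reads had no molecular identifiers, so the floor covers counting error only.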

Additional observations from a re-analysis of the deposited data

How the results depend on the processing

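Under the alternatives, 447 of 480 values of the members kept their direction and side of the threshold, 19 gained a call, 12 lost one and 2 reversed. For the other named genes 1076 of 1104 values did so, 10 gained a call, 9 lost one and 9 reversed. Of the counts of called genes, 324 stayed within 1.5 times and 12 moved. The 12 that moved all concern 2-AA against flg22: 3317 genes were called, or 2090 without the 3 libraries rich in chloroplast counts, and 2204 to 3392 with 1 library left out. With 1 library left out, the anaerobic list had 5 to 8 called genes (8 with all libraries), the core list 4 to 14 (9), the low-energy list 1 to 2 (1) and the clock list 0 to 4 (0, or 1 by limma-voom and 1 with only the groups compared, and 5 at an unadjusted p under 0.05 by edgeR). The 11 values that reversed were all small. RAP2.2 with flg22 ran from -0.0063 (without flg22 2) to 0.0657 with 1 library left out. RAP2.2 with 2-AA ran from -0.0734 (without 2-AA 2, and -0.0027 without mock 1) to 0.102, and stood at -0.046 without the 3 chloroplast-rich libraries. ZPR2 with flg22 ran from -0.0595 (without flg22 2, and -0.02 and -0.04 without mock 1 and flg22 3) to 0.393. VRN2 with 2-AA ran from -0.143 to 0.0143 (without 2-AA 3), and stood at 0.0325 without the 3 libraries. HB1 between the treatments ran from -0.0697 (without 2-AA 1, and -0.06 without flg22 2) to 0.245. The cause was not tested. PDC1 with 2-AA was also called by limma-voom, with no filter and with only the groups compared; PCO2 and ERF71 between the treatments were also called by DESeq2, and ERF71 with no filter.

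Pairing by replicate number was not seen in the correlation of deviations. It was -0.13 to 0.19 over 9 pairs with the same number, with 1 over 0.1, and -0.15 to 0.22 over other pairs. With 3 libraries a group, this check cannot show whether libraries shared a culture or batch. With the replicate number as a block, 12264 genes were called with flg22, 12918 with 2-AA and 3082 between the treatments; PCO2 between the treatments and SUS1 with 2-AA gained a call and SUS4 with 2-AA lost one.

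Depth limits ERF71 most, with 1 to 10 counts in flg22 libraries. With 3 libraries a group and 6 residual degrees of freedom, a missed call does not show that values were equal. The hour of harvest is unknown, and clock phase and treatment cannot be told apart.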
